A study of Homo sapiens with 23 samples.

Results

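The genes described here are the 39 factors that shorten the poly(A) tail of an mRNA, remove its cap and digest its body, chosen by symbol from a list of members of this machinery and not by their values. They are 39 of 61217 genes listed in each of 6 comparison tables. The data are polyA RNA sequencing of C-33A and CaSki, established lines labelled as cervical squamous carcinoma, HPV-negative for C-33A and HPV-positive and metastatic for CaSki. Each line received 100 nM of a mimic of miR-218-5p, of miR-23b-3p or of miR-124-3p, or of negative control n#1. The 23 samples form 8 groups of 3, except C-33A with miR-124-3p, which has 2. Every value compares a mimic with the negative control in its own line, so the 3 comparisons of a line share their control samples and are given side by side without being counted as independent.

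A mammalian mRNA usually decays in a fixed order. PAN2-PAN3 and the CCR4-NOT complex shorten the poly(A) tail, the LSM1-7 ring and PATL1 bind the shortened end, DCP2 with its cofactors removes the cap, and XRN1 digests the body from the 5′ end. A microRNA bound to Argonaute recruits PAN2-PAN3 and CCR4-NOT to its targets, and CCR4-NOT in turn binds DDX6, so these proteins act in silencing by any microRNA, while their own mRNAs may also carry microRNA sites.

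Whether the samples of each group are separate cultures is not given in the labels, so the p-values measure only how these samples vary, and that variation may be technical. No value of a single sample was used, the depth of the libraries is unknown, and in bulk RNA fewer cells with a transcript and less of it per cell cannot be told apart. In CaSki the 6 epithelial markers looked up (KRT5, KRT8, KRT18, KRT19, EPCAM and CDH1) had an average log2 CPM of 5.70 (EPCAM) to 12.1 (KRT5) in the authors' deposited table for miR-23b-3p. In the C-33A table for the same mimic the range was -3.10 (KRT19) to 0.82 (KRT18), so the defining keratins of the labelled cell type were low or near the table's floor there. COL1A2, a fibroblast marker, was at 2.94 and PTPRC, a leukocyte marker, at 2.67 in that authors' deposited table for C-33A. Values of the other fibroblast, leukocyte and endothelial markers looked up (COL1A1, DCN, LUM, CD3E, CD68, PECAM1, VWF and CDH5) are not given here. COL1A2 and PTPRC alone assign no cell type, and the part of the markers in the results was not tested.

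The mature microRNAs show the letters that were searched for in the members' 3′ UTRs. They come from RefSeq (GRCh38.p14), written 5′ to 3′ with the seed (bases 2 to 8) in capitals, miR-23b-3p from chr9:95085265-95085287 (+) and miR-218-5p from chr4:20528299-20528319 (+) and, with the same letters, chr5:168768211-168768231 (-).
miR-23b-3p: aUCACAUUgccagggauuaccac
miR-218-5p: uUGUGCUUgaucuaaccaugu
The seeds of these microRNAs differ, and the site searched on the transcript strand was AATGTGA for miR-23b-3p and AAGCACA for miR-218-5p. Sites of miR-124-3p were not analysed here.

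Of the 39 members, 7 (17.9%) carried a miR-23b-3p site in the 3′ UTR of their longest protein coding transcript, against 18.3% of 18373 genes with a 3′ UTR. For miR-218-5p 9 members (23.1%) carried a site, against 13.8% of genes. The members' 3′ UTRs had a median of 1665 nt and those of all genes 1061 nt. A longer window can hold more matches, and the part of 3′ UTR length in these shares was not tested. The miR-23b-3p sites lay in CNOT4 (4 sites), CNOT6L (5), CNOT8 (2), DCP2 (3), and 1 each in BTG1, DCP1A and XRN1. The sites below are a selection from members named in the results, with the match in capitals and, in an 8mer site, the following A as well. Those of CNOT8 and DCP1A and the 7mer sites of CNOT4 and CNOT6L are not printed. The printed sites are windows of 25 bases from GENCODE release 29 (GRCh38), and the coordinates in the next sentences are those of the 7 matched bases.
DCP2 site 1: aatcctgcatcttttAATGTGAcaa
DCP2 site 2: atgttccaggctagaAATGTGAtca
DCP2 site 3: ccagactttagagtaAATGTGAtaa
CNOT6L 8mer 1: ttacattttgacagaAATGTGAAtt
CNOT6L 8mer 2: tagtattttttcattAATGTGAAca
CNOT4 8mer 1: actttattaggacatAATGTGAAgt
CNOT4 8mer 2: agtatgaaaggggatAATGTGAAta
BTG1: gtagcatctaccaaaAATGTGAtac
XRN1: attttcatctagtttAATGTGAgta
The DCP2 sites lie on the plus strand at chr5:113015093-113015099, chr5:113017777-113017783 and chr5:113020224-113020230. Those of the other genes lie on the minus strand: CNOT6L at chr4:77716171-77716177 and chr4:77713629-77713635, CNOT4 at chr7:135387774-135387780 and chr7:135387534-135387540, BTG1 at chr12:92142852-92142858 and XRN1 at chr3:142307045-142307051. For miR-218-5p the 2 members with an 8mer site were the adaptors TOB1, at chr17:50862812-50862818 (-), and BTG2, at chr1:203308404-203308410 (+).
TOB1: tttcatttgccaaccAAGCACAAag
BTG2: ctgccttcttttcaaAAGCACAAct
These are matches of letters, not measured binding, and a member whose longest transcript has a short 3′ UTR (22 nt in CNOT2) offers little sequence to search.

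A member was called as risen or fallen when its adjusted p (FDR) from the authors' edgeR fit, adjusted over all listed genes, was under 0.05. Of the 234 member values (39 genes in 6 comparisons) 9 were called, in 9 different members, and 30 members were called in no comparison. CaSki with miR-23b-3p held 8 of the 9: CNOT6L, CNOT9, CNOT11, BTG1, DDX6 and TUT4 rose and LSM4 and LSM7 fell, where 2.4% of all listed genes (1.41% higher and 0.995% lower) and 9.09% of the 15476 expressed genes, those at an average log2 CPM from 0 upward, were called. The ninth was BTG3, which fell in C-33A with miR-124-3p, where 0.162% of listed genes were called and 0.131% were called as lower. No member was called in the other 4 comparisons, where the called share of listed genes was 0.0474% (C-33A with miR-23b-3p), 0.0751% (C-33A with miR-218-5p), 0.305% (CaSki with miR-124-3p) and 0.0245% (CaSki with miR-218-5p). All of these counts come from edgeR, and an unadjusted p under 0.05 was held in those 4 comparisons by 3, 1, 6 and 3 members, in the same order, against 4.23%, 5.05%, 14.7% and 6.85% of expressed genes. In C-33A with miR-124-3p it was held by 4 members, against 9.57% of expressed genes. PARN and LSM2 stood outside the measured range and are described separately, which leaves 37 measured members.

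**Figure D1:**
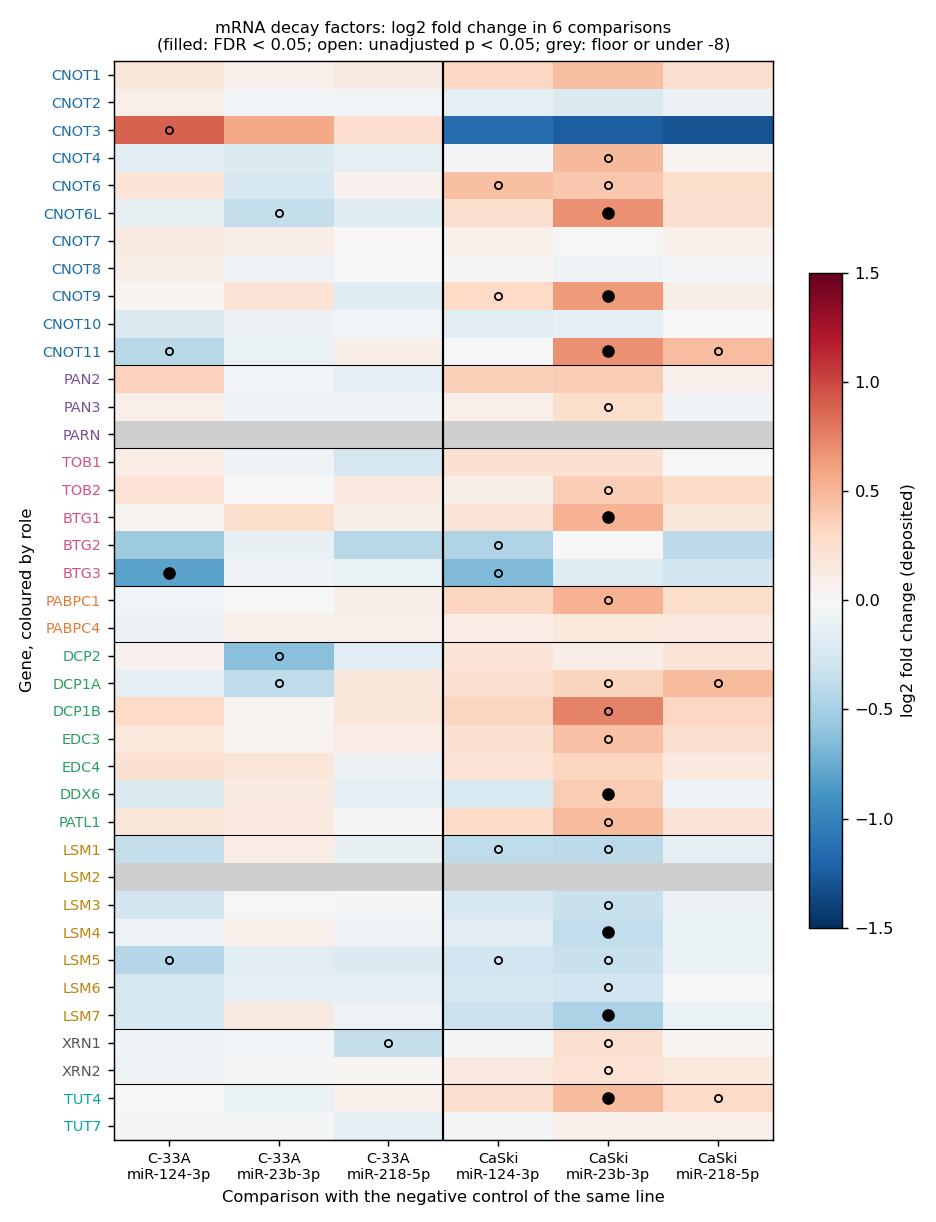
Log2 fold change of each member (vertical axis, grouped and coloured by role) in the 6 comparisons of mimic and negative control (horizontal axis), from the authors' deposited tables; filled circles mark an FDR under 0.05, open circles an unadjusted p under 0.05, and grey cells the values of PARN and LSM2. The column of CaSki with miR-23b-3p holds 8 of the 9 filled circles, and its LSM cells are blue where most other cells are red.

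In CaSki with miR-23b-3p, 23 of the 37 measured members (62.2%) had an unadjusted p under 0.05, 17 higher and 6 lower, against 29.7% of expressed genes (15.7% higher and 14% lower) and 33.6% of those at an average log2 CPM from 2 upward. The members' median log2 fold change there was 0.24, against 0.01 over all genes. In the other 5 comparisons the members' medians lay between -0.04 and 0.08, and those of all genes between -0.04 and 0.01.

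The CCR4-NOT complex is the main cytoplasmic deadenylase. It is built on the scaffold CNOT1 and carries the catalytic subunits CNOT6 or CNOT6L and CNOT7 or CNOT8. In CaSki with miR-23b-3p 6 of the 11 genes listed under the complex were above 0 and 5 below, where 50.7% of measured genes were above 0. Among the 11, 3 were called as risen, none as fallen, and 5 had an unadjusted p under 0.05, all higher. Of expressed genes 9.09% were called there, and 15.7% were higher with such a p. In C-33A with the same mimic none was called and 1, CNOT6L, had an unadjusted p under 0.05, against 4.23% of expressed genes. The authors' deposited tables gave log2 fold changes for CNOT6L, a catalytic subunit of the CCR4 type, of -0.11, -0.36 and -0.18 in C-33A and 0.24, 0.68 and 0.26 in CaSki, each time for miR-124-3p, then miR-23b-3p, then miR-218-5p, an order kept below. All 3 C-33A values are lower and all 3 CaSki values higher than the control. The rise in CaSki with miR-23b-3p was 1.61-fold (SE 0.17 on the log2 scale, adjusted p 0.00564).

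CNOT9, which binds the TNRC6 proteins of the silencing complex, had log2 fold changes in the authors' deposited tables of 0.03, 0.20 and -0.18 in C-33A and 0.30, 0.64 and 0.08 in CaSki. Its rise of 1.56-fold with miR-23b-3p in CaSki (SE 0.14, adjusted p 0.000761) had the lowest adjusted p of any member. CNOT11, an accessory subunit that pairs with CNOT10, had values of -0.41, -0.11 and 0.09 in C-33A and 0.01, 0.68 and 0.46 in CaSki in the authors' deposited tables. It rose 1.60-fold in CaSki with miR-23b-3p (SE 0.17, adjusted p 0.00727), and its values in C-33A with miR-124-3p (unadjusted p 0.0307) and CaSki with miR-218-5p (unadjusted p 0.0117) were not called (adjusted p 1 in both). CNOT10 itself, at -0.13 in CaSki with miR-23b-3p in the authors' deposited table, did not pass.

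The catalytic CNOT6 lay just outside the threshold in CaSki with miR-23b-3p, at 0.40 (adjusted p 0.0513), and the ubiquitin ligase CNOT4 followed at 0.49 (adjusted p 0.0830) in the authors' deposited table. The other CNOT4 values in the authors' deposited tables were -0.16, -0.20 and -0.14 in C-33A and -0.01 and 0.04 in CaSki with miR-124-3p and miR-218-5p and none of these passed. CNOT7 and CNOT8, the other catalytic pair, stood at -0.00 and -0.06 in the same deposited table of the authors, and the scaffold CNOT1 at 0.45. The CCR4-type subunits thus had higher values than the CAF1-type pair in this comparison, a difference between genes that was not tested. CNOT2, which pairs with CNOT3 on the scaffold, was at -0.22 in the authors' deposited table.

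CNOT3 had the widest values of the complex, 0.89, 0.57 and 0.25 in C-33A and -1.14, -1.24 and -1.29 in CaSki in the authors' deposited tables, and none was called. Its average log2 CPM was 1.16 to 1.58, its recovered SEs in CaSki were 0.89 to 0.99, and its difference between the lines with miR-124-3p was -2.03 (CaSki minus C-33A, SE 0.96, adjusted p 1.00).

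**Figure D2:**
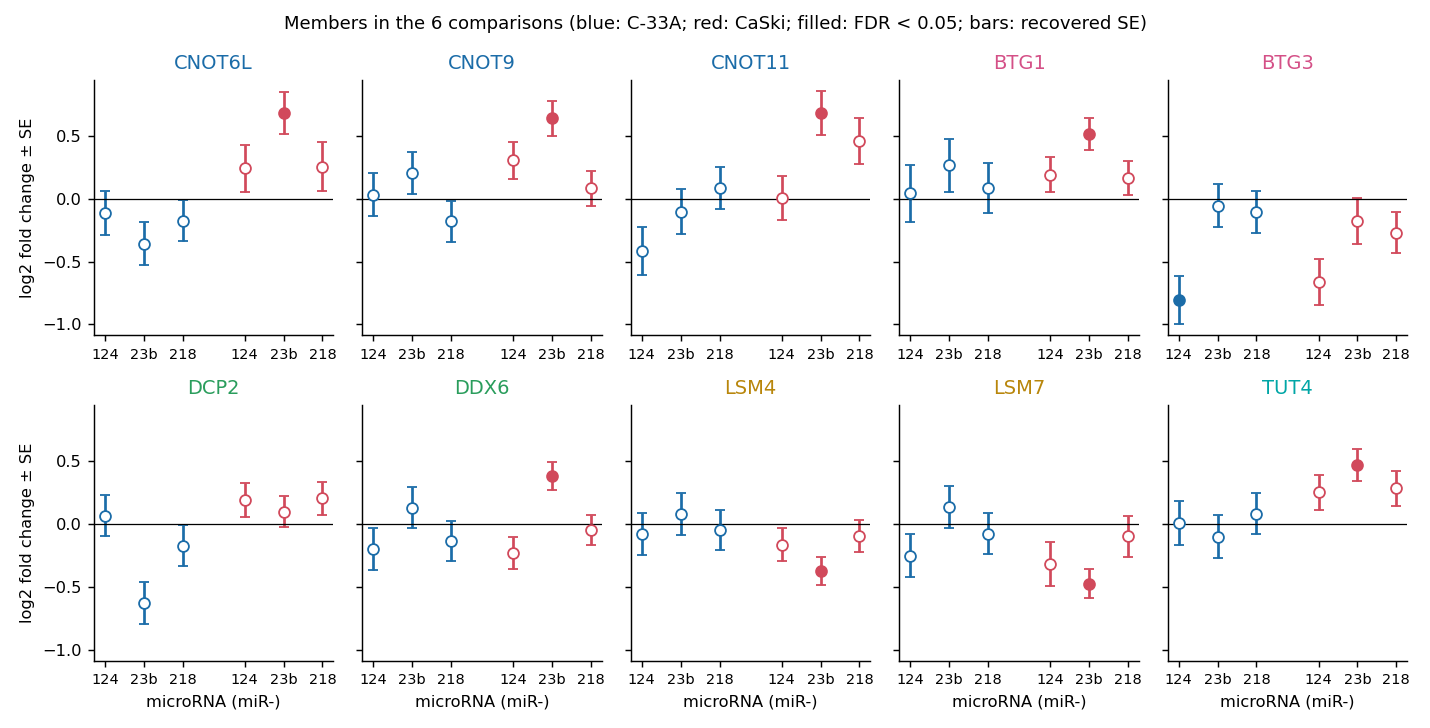
Log2 fold change with its recovered SE (vertical axis, bars) for the 9 called members and DCP2 in the 6 comparisons (horizontal axis, microRNA), with C-33A in blue, CaSki in red and filled points at an FDR under 0.05. BTG3 is lowest with miR-124-3p in both lines, and DCP2 is lowest in C-33A with miR-23b-3p.

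PAN2-PAN3 trims long tails before CCR4-NOT takes over, and neither subunit was called in any comparison. PAN2, the nuclease, had log2 fold changes of 0.35, -0.04 and -0.14 in C-33A and 0.36, 0.37 and 0.08 in CaSki in the authors' deposited tables, and PAN3, its pseudokinase partner, stayed between -0.06 and 0.26. PABPC1, the main cytoplasmic poly(A)-binding protein, was at 0.52 in CaSki with miR-23b-3p (adjusted p 0.0890) and PABPC4 at 0.16 in the authors' deposited table, and neither passed.

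The TOB and BTG proteins bind CNOT7 and CNOT8 and bring CCR4-NOT to mRNAs. BTG3 fell with miR-124-3p in C-33A, and the same mimic gave its lowest value in CaSki. The authors' deposited tables listed BTG3 at -0.80, -0.05 and -0.10 in C-33A and -0.66, -0.18 and -0.27 in CaSki. In C-33A with miR-124-3p this is a ratio of 0.573 to the control (SE 0.19 on the log2 scale, adjusted p 0.0214), and in CaSki a ratio of 0.631 (SE 0.19, adjusted p 0.0884), which did not pass. The C-33A value rests on 2 mimic samples, and its SE comes from a spread shared by all listed genes, not from BTG3 alone. The difference between the lines was 0.14 (SE 0.27, adjusted p 1.00), which shows neither a difference between the lines nor that they are alike. BTG1 rose 1.43-fold in CaSki with miR-23b-3p (SE 0.13, adjusted p 0.00515), and its 6 log2 fold changes were 0.04, 0.27 and 0.09 in C-33A and 0.19, 0.52 and 0.16 in CaSki in the authors' deposited tables. All 6 BTG1 values are above 0, and its site for miR-23b-3p did not go with a lower value in either line. BTG2 had values of -0.54, -0.11 and -0.41 in C-33A and -0.45, -0.01 and -0.40 in CaSki in the authors' deposited tables, none called, with the lowest p in CaSki with miR-124-3p (unadjusted p 0.0150). TOB1 and TOB2 ranged from -0.27 to 0.37 and were not called.

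Decapping is carried out by DCP2 with DCP1A or DCP1B and the enhancers EDC3, EDC4, DDX6 and PATL1. All 7 had values above 0 in CaSki with miR-23b-3p, 5 of them with an unadjusted p under 0.05, and 1, the helicase DDX6, passed. Of the 15287 genes measured in that comparison 50.7% were above 0, 30.1% had such a p and 9.20% were called. DDX6, which binds CNOT1 and couples deadenylation to decapping and translational repression, had log2 fold changes in the authors' deposited tables of -0.20, 0.13 and -0.13 in C-33A and -0.23, 0.38 and -0.05 in CaSki. The miR-23b-3p mimic gave the highest of its values in both lines, and the rise in CaSki was 1.30-fold (SE 0.11, adjusted p 0.0329).

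DCP2, the decapping enzyme, carries 3 miR-23b-3p sites, and its lowest value was with that mimic in C-33A. The authors' deposited tables gave 0.07, -0.63 and -0.17 in C-33A and 0.19, 0.10 and 0.21 in CaSki. The C-33A value with miR-23b-3p is a ratio of 0.646 to the control (SE 0.17 on the log2 scale, unadjusted p 0.000145, adjusted p 0.172). It was not called over all listed genes, and it passed when the adjustment covered only the 15222 expressed genes, of which 0.394% then passed (adjusted p 0.0436). With the trend with transcript length and GC content subtracted this DCP2 value was -0.54 and was not called (adjusted p 0.907). DCP1A, its activator, has 1 site for miR-23b-3p and 1 for miR-218-5p, and its values in the authors' deposited tables were -0.14, -0.38 and 0.17 in C-33A and 0.25, 0.33 and 0.47 in CaSki. It had an unadjusted p under 0.05 in 3 comparisons, lower in C-33A with miR-23b-3p (0.0291) and higher in CaSki with miR-23b-3p (0.0327) and miR-218-5p (0.00427), and was called in none (adjusted p 1, 0.402 and 1). DCP1B had the highest member value in CaSki with miR-23b-3p, 0.75 in the authors' deposited table, at an average log2 CPM of 1.43 and with an SE of 0.28 (adjusted p 0.177).

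The LSM1-7 ring binds the end of a shortened tail and, with PATL1, activates decapping, while LSM2 to LSM7 also serve in the nuclear ring on U6 RNA. In CaSki with miR-23b-3p LSM4 and LSM7 fell, and all 6 measured members had negative values with an unadjusted p under 0.05, opposite in sign to all 7 decapping factors. There 7541 of 15287 genes were below 0, 14% of expressed genes were lower with such a p and 3.84% were called as lower. Over all genes the log2 fold change rose with transcript length in that comparison, as described below. The authors' deposited table for that comparison listed LSM7 at -0.47, LSM1 at -0.39, LSM4 at -0.37, LSM3 at -0.34, LSM5 at -0.33 and LSM6 at -0.29. LSM7 stood at 0.720 of the control level (SE 0.12, adjusted p 0.00657) and LSM4 at 0.772 (SE 0.11, adjusted p 0.0416). The ring's 6 values were also all below 0 in C-33A with miR-124-3p (median -0.27) and miR-218-5p (-0.10) and in CaSki with miR-124-3p (-0.26) and miR-218-5p (-0.10), with none called, and 3 of 6 in C-33A with miR-23b-3p (median 0.04). In C-33A with miR-218-5p 8969 of 15373 genes were also below 0 (median -0.04). With the length and GC trend subtracted all 6 ring values stayed below 0 with miR-124-3p in both lines (medians -0.19 in C-33A and -0.21 in CaSki). With miR-218-5p 4 of 6 were then below 0 in C-33A (median -0.02) and 5 of 6 in CaSki (-0.07). LSM7 had log2 fold changes of -0.25, 0.13 and -0.08 in C-33A and -0.32, -0.47 and -0.10 in CaSki in the authors' deposited tables. LSM4 had smaller ones, -0.08, 0.08 and -0.05 in C-33A and -0.16, -0.37 and -0.10 in CaSki in the authors' deposited tables. LSM5 had an unadjusted p under 0.05 in 3 comparisons and all 6 values below 0 in the authors' deposited tables, -0.43, -0.15 and -0.21 in C-33A and -0.29, -0.33 and -0.09 in CaSki.

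XRN1, the cytoplasmic 5′ to 3′ exonuclease, and its nuclear relative XRN2 were called nowhere. XRN1 had the lowest p of any member in C-33A with miR-218-5p, and its values in the authors' deposited tables were -0.07, -0.04 and -0.36 in C-33A and -0.03, 0.24 and 0.03 in CaSki. The uridylyltransferases TUT4 and TUT7 add uridines to short tails and so mark them for decay. TUT4 rose 1.39-fold in CaSki with miR-23b-3p (SE 0.13, adjusted p 0.0172), and the authors' deposited tables gave 0.01, -0.10 and 0.08 in C-33A and 0.25, 0.47 and 0.28 in CaSki. TUT7 stood at 0.07 in the same comparison of the authors' deposited tables and did not pass.

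PARN, a poly(A)-specific nuclease, and LSM2 were listed at or near the floor of the C-33A tables (average log2 CPM -3.48 to -3.64). In CaSki the authors' deposited tables listed PARN at -12.30, -12.82 and -12.34 and LSM2 at -12.56, -13.09 and -12.61. Neither was called, with unadjusted p of 0.225 to 0.301 and recovered SEs of 10.2 to 12.7. Both genes are used by every cell, so these entries are given only as listed. They belong to 189 genes under -8 in all 3 CaSki comparisons, of which 176 were at the floor in all C-33A tables, 53 of 165 with a position lay on chromosome 6, and none was called, while no gene lay above 8 in all 3.

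In CaSki with miR-23b-3p the log2 fold change rose with transcript length over all genes (Spearman 0.449 over 10566 genes at an average log2 CPM from 2 upward), from a median of -0.26 in the shortest bin (median 833 nt) to 0.30 in the longest (10813 nt). Over 34 members the coefficient was 0.495, with the LSM transcripts at the short end and CNOT6L, DCP2 and XRN1 at the long end. In CaSki with miR-124-3p and miR-218-5p the coefficient was 0.341 and 0.271 over all genes and 0.514 and 0.521 over members. In C-33A, in the order of mimics used above, it was 0.269, -0.077 and 0.128 over all genes. Over members in C-33A it was 0.492, -0.123 and 0.073. Genes within a sample are not independent replicates, so these coefficients are descriptions. When the trend with length and GC content was subtracted in CaSki with miR-23b-3p, 3 members were called, where 1.25% of listed genes then were. They were CNOT9 at 0.55 (adjusted p 0.0128), CNOT11 at 0.71 (0.00778) and LSM3 at -0.41. The calls of 6 members did not hold: BTG1 at 0.42 (adjusted p 0.0648), LSM7 at -0.40 (0.0529), CNOT6L at 0.43 (0.280), TUT4 at 0.31 (0.347), DDX6 at 0.21 (0.670) and LSM4 at -0.20 (0.740). All 6 measured LSM genes stayed below 0 after the subtraction (median -0.27), 6 of 7 decapping factors stayed above it, and the members' median was 0.17 against -0.02 over all genes. The subtraction left a median of -0.15 in the shortest bin, where LSM7 (575 nt) lies, and LSM3 enters with an annotated transcript of 3815 nt, the longest of the ring. BTG3 in C-33A with miR-124-3p was at -0.61 after it (adjusted p 0.460). The part of transcript length in the members' values was not tested beyond this subtraction.

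**Figure D3:**
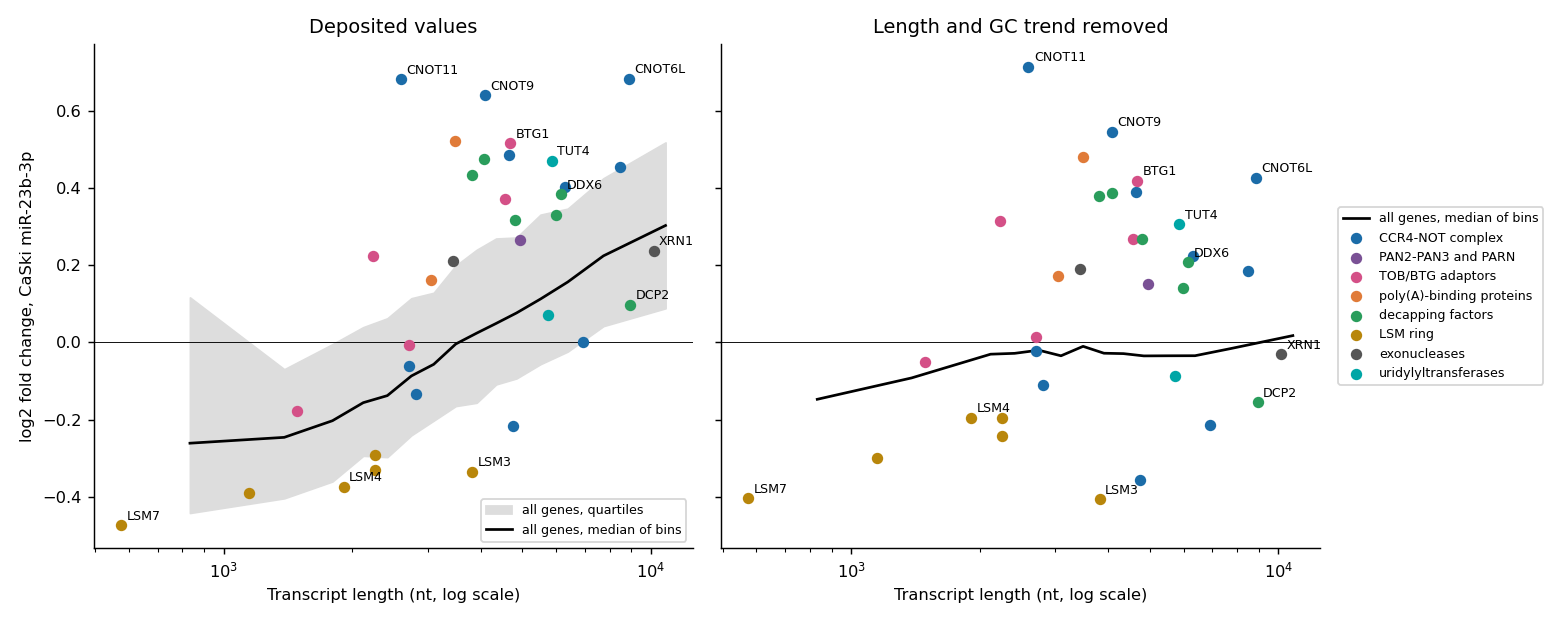
Log2 fold change in CaSki with miR-23b-3p (vertical axis) against transcript length in nt (horizontal log axis) for 34 members at an average log2 CPM from 2 upward, as deposited (left) and after subtraction of the length and GC trend (right); the line and band are the median and quartiles of all genes in bins of length. CNOT9 and CNOT11 lie above the band on the left, LSM3 lies below it, and LSM4, LSM7, DDX6 and CNOT6L move toward 0 on the right.

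Members with a site of the transfected microRNA had lower medians than the others in C-33A with both mimics, as all genes with a site did, and no test was made between these small sets. In CaSki the order of the members' medians depended on the mimic and on whether the length and GC trend was subtracted. With miR-23b-3p in C-33A 6 of the 7 members with a site were below 0, against 67.3% of all genes with a site. The 7 had a median of -0.20, against -0.01 in the 30 without. All genes with and without a site had medians of -0.08 and 0.05. With the length and GC trend subtracted 5 of the 7 were below 0, and the members' medians were -0.13 with a site and -0.01 without. All genes with and without a site then had medians of -0.05 and 0.02. The log2 fold change rose with GC content in that comparison (Spearman 0.502 over 10324 genes and 0.423 over 35 members). The transcripts of the 7 had 36.3% (CNOT6L) to 44.1% GC (DCP1A). The part of GC content was not tested beyond this subtraction. In CaSki 1 of the 7 was below 0, against 41.8% of all genes with a site. The 7 had a median of 0.33 there, against 0.22 in the 30 without, and all genes stood at 0.06 and -0.03. After subtraction of the length and GC trend in CaSki the members with a site had a median of 0.14 and those without 0.18. All genes with and without a site then had -0.07 and -0.03. CNOT6L, with the most sites of any member, stood at -0.36 in C-33A and rose in CaSki (0.68) in the authors' deposited tables, and CNOT4, with 4 sites, stood at -0.20 and 0.49. For miR-218-5p 7 of 9 members with a site (77.8%) were below 0 in C-33A, against 69.1% of all genes with a site. Their median was -0.15, against -0.01 in the 28 members without, and all genes with and without a site stood at -0.10 and -0.03. With the trend subtracted 6 of the 9 were below 0, and the members' medians were -0.03 with a site and 0.04 without. The coefficient with GC content there was 0.291 over all genes and 0.292 over members. In CaSki with miR-218-5p 3 of the 9 were below 0, against 50.8% of all genes with a site. The members' medians there were 0.0770 with a site and 0.0803 without (0.0145 and 0.0239 with the trend subtracted). BTG2, with an 8mer site, was at -0.41 and -0.40 with miR-218-5p in the lines in the authors' deposited tables, its values with miR-124-3p were as low, and TOB1 was at -0.27 and 0.00.

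**Figure D4:**
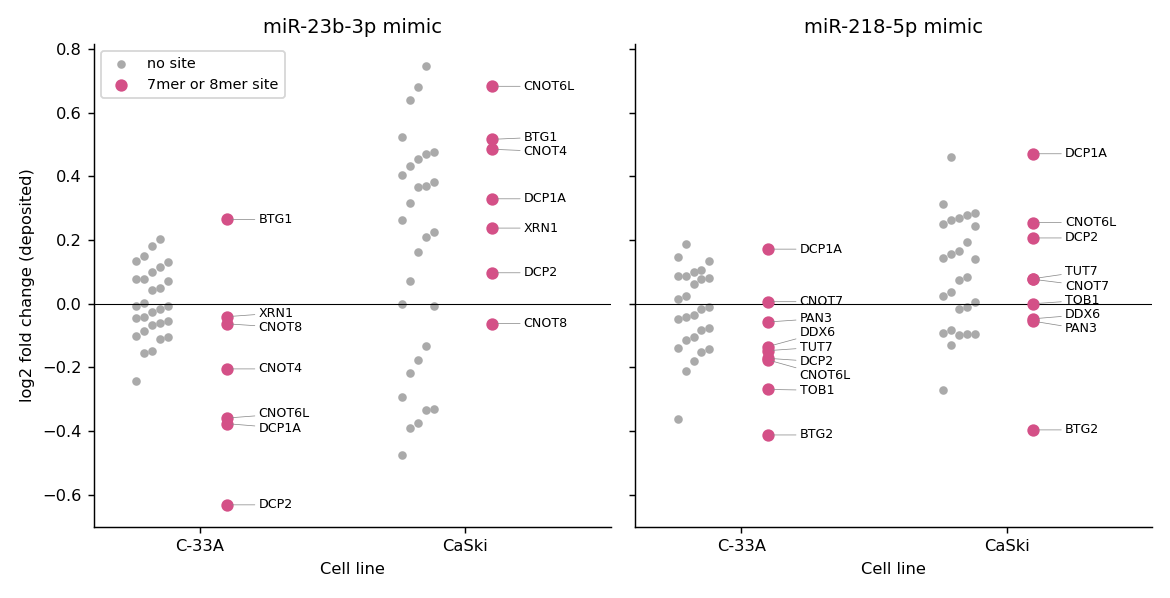
Log2 fold change (vertical axis) of members with a 7mer or 8mer site (named) and without one (grey) for miR-23b-3p and miR-218-5p in C-33A and CaSki (horizontal axis); CNOT3 is left off. With miR-23b-3p 6 of the 7 members with a site lie below 0 in C-33A and 1 of the 7 in CaSki. Of all genes with a site 67.3% and 41.8% were below 0.

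The lines share no samples, so their fold changes were compared gene by gene. With miR-23b-3p 2 members differed after adjustment over 12905 genes, of which 1.7% passed. CNOT6L was 1.04 higher in CaSki than in C-33A on the log2 scale (SE 0.24, adjusted p 0.00774). DCP2 was 0.73 higher (SE 0.21, adjusted p 0.0360). Another 4 members lay between 0.05 and 0.1 in adjusted p: CNOT11 (0.0654), CNOT6 (0.0753), DCP1A (0.0780) and LSM7 (0.0858). With the length and GC trend subtracted in each line, neither passed (CNOT6L 0.67, adjusted p 0.252, and DCP2 0.38, adjusted p 0.572). With miR-124-3p and miR-218-5p no member passed, as no gene did (0% in both), with 1 and 0 of 37 members at an unadjusted p under 0.05 by the same normal test, against 2.51% and 1.56% of genes. With miR-23b-3p 12 of 37 members had such a p, against 15.6% of genes, and 9 of 37 against 9.24% with the trend subtracted. In C-33A the p-values come from a spread shared by all listed genes (recovered residual degrees of freedom of 183651 and 244868), and in CaSki from 25.7 to 38.2 degrees of freedom, so the tests of the lines differ in how far they pool genes.

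The members' levels are given here from tables that were normalised separately for each comparison, with no test between lines. Over 34 members at an average log2 CPM from 2 upward in both lines 26 (76.5%) were higher in C-33A, against 59.8% of 9704 genes, and 7 (20.6%) differed by more than 2-fold, against 27.0% of genes. DCP2 was at 8.04 in C-33A and 5.90 in CaSki (4.43-fold higher in C-33A), CNOT6L was 2.89-fold and DCP1A 2.83-fold higher there, as means of the authors' deposited average log2 CPM. The 2 members that differed between the lines in their response to miR-23b-3p were thus also more abundant in C-33A. BTG1 was 3.99-fold, BTG2 3.26-fold and PABPC1 2.33-fold higher in CaSki. PAN2 was 4.05-fold higher in C-33A, at an average log2 CPM of 1.93 in CaSki. Per kb of transcript LSM7, PABPC1, LSM4 and PABPC4 held the first 4 places in both lines, and DDX6 held place 5 in C-33A and 7 in CaSki.

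**Figure D5:**
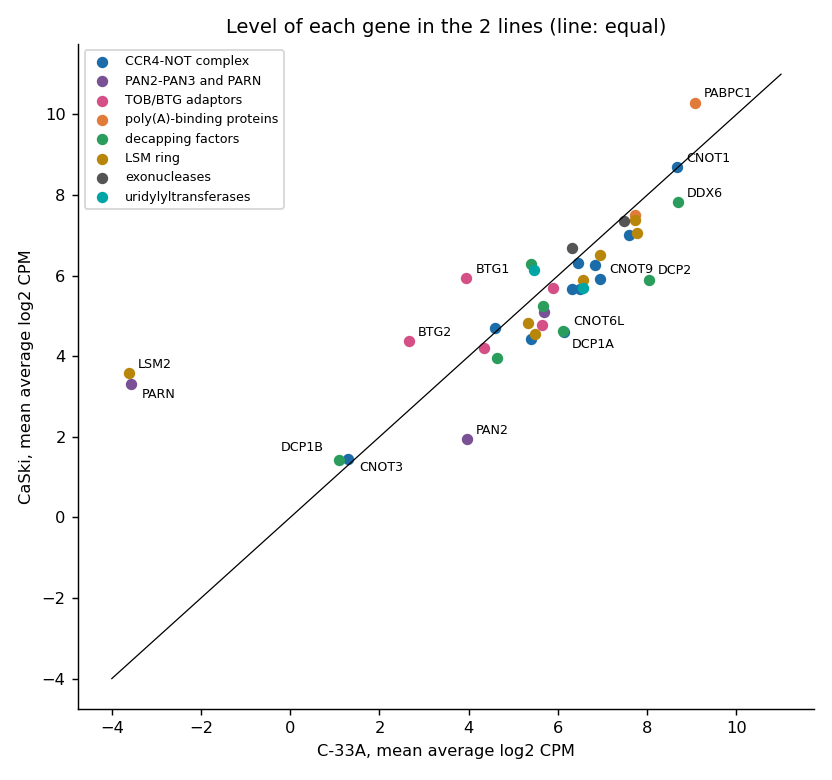
Mean of the authors' average log2 CPM over the 3 tables of each line for the 39 members, C-33A on the horizontal and CaSki on the vertical axis, with the line of equal levels. DCP2, PAN2, CNOT6L and DCP1A lie below the line, BTG1, BTG2 and PABPC1 above it, and PARN and LSM2 stand at the floor of C-33A.

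Of 51 related genes of the RNA exosome, the SKI complex, nonsense-mediated decay and decay adaptors, all listed, 6 were called, all in CaSki with miR-23b-3p, 4 higher and 2 lower. These are 12.5% of the 48 measured there, near the 9.20% of all 15287 genes measured in that comparison. In the authors' deposited table for that comparison the helicase HELZ was at 0.69, the AU-rich element binding HNRNPD at 0.50, the kinase SMG1 of nonsense-mediated decay at 0.46 and the roquin RC3H1 at 0.40. The exosome subunit EXOSC5 was at -0.63 and PAIP1, a partner of poly(A)-binding protein, at -0.51 in the same deposited table of the authors. The 13 measured exosome genes had 3 values above 0 and 10 below (median -0.22), and the 22 measured decay adaptors had 16 above and 6 below (median 0.24), against a median of 0.01 over all genes. With the length and GC trend subtracted the exosome median was -0.26 and that of the adaptors 0.13, against -0.02 over all genes. SKIC2 of the SKI complex was listed with PARN and LSM2 among the genes under -8 in CaSki.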

How the data were processed

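Per the submitters' processing notes, the authors' tools were edgeR 3.36.0, featureCounts 2.0.3, STAR 2.7.10b and FastQC 0.73, and the build was GRCh38 (hg38). For the strand setting of the counting, the sources used here give nothing. Per the file headers, the 61217 genes of a deposited table carry a log2 fold change and average log2 CPM, the F score with its p-value, and an FDR. That FDR is the deposited p-value adjusted by Benjamini-Hochberg over all of them. The design foresaw a fit to counts; since the tables hold comparisons, the authors' edgeR statistics were used. The members, gene lists and tests were chosen with earlier results of these data known.

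SEs were recovered as the log2 fold change over the normal quantile of the deposited p-value. The lines were compared by a two-sided normal test of the difference of their fold changes, adjusted (Benjamini-Hochberg) over genes at an average log2 CPM from 0 upward in both. The trend was a Huber robust fit (statsmodels 0.14.6) of added splines of transcript length and GC content, each with 6 knots (scikit-learn 1.9.0, Python 3.11.15). A value with the trend subtracted kept the SE recovered from its deposited p-value, with no allowance for error in the fitted trend. The recomputation was tested on simulated data that held a straight trend with length and none with GC content. Transcripts and 3′ UTRs came from GENCODE release 29. Given with all 6 values were members called anywhere, with the lowest p of a comparison, with an unadjusted p under 0.05 in 3 or more, or with a site and such a p. CNOT3, BTG2, PARN, LSM2, PAN2 and other members were named besides, after their values were seen. An alternative against the mean of the other 2 mimics of a line was added after seeing the data.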

Additional observations from a re-analysis of the deposited data

Results flagged for a closer look

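The response to miR-23b-3p differed between the lines for 2 members by the normal test of the difference of the fold changes. CNOT6L was 1.04 higher on the log2 scale in CaSki than in C-33A (-0.36 in C-33A and 0.68 in CaSki, SE of the difference 0.24, adjusted p 0.00774). DCP2 was 0.73 higher (-0.63 in C-33A and 0.10 in CaSki, SE 0.21, adjusted p 0.0360). Neither passed once the trend with transcript length and GC content was subtracted in each line.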

How the results depend on the processing

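No paired analysis was possible because no value per sample was used: the titles repeat replicate numbers between groups, but the tables hold comparisons only. Leaving out each replicate, the replicate block and a second count tool were not run for the same reason. At an FDR of 0.01 the members called fell from 1 to 0 in C-33A with miR-124-3p and from 8 to 5 in CaSki with miR-23b-3p. At 0.1 BTG3 was called in CaSki with miR-124-3p (1 member against 0). Adjustment over genes at an average log2 CPM from 0 upward, and likewise from 2 upward, called 1 member (DCP2) in C-33A with miR-23b-3p, 1 (BTG3) in CaSki with miR-124-3p and 14 in CaSki with miR-23b-3p. With the length and GC trend subtracted 0 members were called in C-33A with miR-124-3p, 3 in CaSki with miR-23b-3p and 0 between the lines. Members differing between the lines with miR-23b-3p numbered 4 with the SE taken from the F score and 6 at an adjusted p under 0.1. XRN1 in CaSki with miR-23b-3p turned to -0.0314 with the trend subtracted, and DCP1A there to -0.0304 against the mean of the other 2 mimics. The other 34 settings of the counts of members called or differing between the lines stayed within 1.5 times or at 0. In most of these both counts were 0, which gives no ratio, and a stricter FDR cannot add to a count of 0. Members with a site numbered 2 for 8mers alone and 15 for 6mers with miR-23b-3p (7 as reported), and 2 and 16 with miR-218-5p (9 as reported). Of 23 named values, 7 lost their call with the trend subtracted, 4 gained one under either limit on average log2 CPM, and re-centring on the median changed none. Against the mean of the other 2 mimics 14 moved by more than their SE. Those 14 include all 8 members called in CaSki with miR-23b-3p. There CNOT9 went from 0.64 to 0.45, CNOT11 from 0.68 to 0.45, CNOT6L from 0.68 to 0.43 and BTG1 from 0.52 to 0.34. TUT4 went from 0.47 to 0.20, LSM7 from -0.47 to -0.27 and LSM4 from -0.37 to -0.24. Of the 8 only DDX6 moved away from 0, from 0.38 to 0.52. The causes were not tested. Depth per sample is unknown, so no limit of detection is given.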
